A study of Homo sapiens with 2 samples.

Results

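The clustered protocadherin genes are the protein-coding genes of chromosome 5 whose symbols begin with PCDHA, PCDHB or PCDHG in the RefSeq annotation of hg38. This rule gave 53 members among 20037 protein-coding genes, and it used no measured value. They comprised 13 PCDHA genes, 2 PCDHAC genes, 16 PCDHB genes, 12 PCDHGA genes, 7 PCDHGB genes and 3 PCDHGC genes. The members lay between 140786140, the start of PCDHA1, and 141512975, the shared end of the PCDHG genes. Accessible sites were taken from this stretch and from 200 kb on either side. DNase I hypersensitive sites, here called hotspots, had been mapped by DNase-seq in Saos-2 and U2OS, a pair of long-established human osteosarcoma lines. DNase I digestion of isolated nuclei was kept brief and limiting (3 min, 37 °C), and the labels name no further treatment. There was 1 library per line, and normal bone cells were not analysed here, so each comparison describes 2 libraries and carries no test or replicate error. All positions are on chromosome 5 of hg38 unless another chromosome is named.

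Clustered protocadherins are cell-adhesion proteins of the cadherin superfamily that are best known from neurons, where the combination made by a cell labels its surface for self-recognition. In the PCDHA and PCDHG clusters each gene has a variable first exon with a promoter of its own, which is spliced to constant exons at the end of the cluster, so the annotated genes overlap and share that end. PCDHB genes have no constant exons and stand side by side. Most of the variable promoters carry a conserved sequence element with the core CGCT, which is bound by CTCF, and the PCDHA variable exons are known for a second CTCF site within the exon. CTCF and cohesin bring chosen promoters to distal enhancers such as HS5-1 of the PCDHA cluster. PCDHAC1, PCDHAC2, PCDHGC3, PCDHGC4 and PCDHGC5 are expressed more constitutively in neurons than the alternately chosen genes.

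To show what lay under the hotspots, the promoter windows of 6 members are printed first, those overlapped by the most significant hotspots in either line. Each window runs from 250 bases before to 50 bases after the start, 5′ to 3′ on the plus strand, and comes from RefSeq on GRCh38.p14. Capitals mark the bases covered by a U2OS hotspot. Positions in these windows are counted from the gene start, which is 0.
PCDHGC3 (chr5:141475716-141476015): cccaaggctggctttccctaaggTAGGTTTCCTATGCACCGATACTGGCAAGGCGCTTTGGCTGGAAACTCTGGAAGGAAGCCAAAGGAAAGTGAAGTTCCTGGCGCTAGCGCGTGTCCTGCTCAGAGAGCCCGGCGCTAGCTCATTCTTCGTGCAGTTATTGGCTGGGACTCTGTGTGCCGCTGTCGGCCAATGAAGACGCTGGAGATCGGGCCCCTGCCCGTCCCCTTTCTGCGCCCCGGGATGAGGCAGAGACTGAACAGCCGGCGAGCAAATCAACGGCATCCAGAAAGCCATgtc
PCDHGB1 (chr5:141349849-141350148): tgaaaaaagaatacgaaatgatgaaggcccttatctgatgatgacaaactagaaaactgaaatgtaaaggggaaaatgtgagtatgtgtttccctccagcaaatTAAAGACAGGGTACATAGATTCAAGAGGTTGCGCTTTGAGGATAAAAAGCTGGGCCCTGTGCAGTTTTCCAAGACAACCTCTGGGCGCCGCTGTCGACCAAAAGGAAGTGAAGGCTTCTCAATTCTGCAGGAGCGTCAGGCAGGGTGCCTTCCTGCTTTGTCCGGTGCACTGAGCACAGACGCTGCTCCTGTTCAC
PCDHAC1 (chr5:140926049-140926348): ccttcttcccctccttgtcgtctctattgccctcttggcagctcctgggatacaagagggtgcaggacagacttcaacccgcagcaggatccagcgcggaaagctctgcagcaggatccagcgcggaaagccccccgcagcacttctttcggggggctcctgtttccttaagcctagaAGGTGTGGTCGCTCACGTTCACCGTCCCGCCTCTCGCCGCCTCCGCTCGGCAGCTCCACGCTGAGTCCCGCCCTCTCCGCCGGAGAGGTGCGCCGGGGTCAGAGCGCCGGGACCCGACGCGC
PCDHAC2 (chr5:140966226-140966525): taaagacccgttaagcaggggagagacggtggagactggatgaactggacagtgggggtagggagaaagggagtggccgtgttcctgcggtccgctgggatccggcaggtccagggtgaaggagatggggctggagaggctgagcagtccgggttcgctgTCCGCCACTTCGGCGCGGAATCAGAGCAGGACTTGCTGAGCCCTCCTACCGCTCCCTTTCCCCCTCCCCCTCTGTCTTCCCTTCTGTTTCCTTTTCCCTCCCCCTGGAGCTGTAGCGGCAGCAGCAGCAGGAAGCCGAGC
PCDHA11 (chr5:140868707-140869006): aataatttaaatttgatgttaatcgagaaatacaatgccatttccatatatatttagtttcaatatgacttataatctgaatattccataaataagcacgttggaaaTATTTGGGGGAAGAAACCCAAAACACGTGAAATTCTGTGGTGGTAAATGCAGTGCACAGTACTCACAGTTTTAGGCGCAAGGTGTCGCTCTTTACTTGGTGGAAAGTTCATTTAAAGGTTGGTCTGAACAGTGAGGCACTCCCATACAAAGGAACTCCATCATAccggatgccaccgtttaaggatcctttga
PCDHB2 (chr5:141094365-141094664): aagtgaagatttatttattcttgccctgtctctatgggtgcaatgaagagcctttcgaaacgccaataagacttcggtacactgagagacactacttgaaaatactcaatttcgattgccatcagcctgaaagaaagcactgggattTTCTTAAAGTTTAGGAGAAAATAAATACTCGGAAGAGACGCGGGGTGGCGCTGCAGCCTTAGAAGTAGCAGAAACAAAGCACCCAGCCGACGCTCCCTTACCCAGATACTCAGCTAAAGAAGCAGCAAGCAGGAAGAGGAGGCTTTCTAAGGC
The covered stretch began between positions -227 and -72 and ended between positions 20 and 49, where 49 is the last base of the window. In each of these windows it included the start itself. CGCT or its reverse complement AGCG lay in every window, and all copies were inside the covered bases in PCDHGC3 (6 of 6), PCDHGB1 (4 of 4), PCDHA11 (1 of 1) and PCDHB2 (2 of 2). In PCDHAC1 4 of 6 copies were covered, and in PCDHAC2 2 of 4. Of the 300 bases of a window, the hotspots covered 274 in PCDHGC3, 196 in PCDHGB1, 164 in PCDHA11 and 153 in PCDHB2. They covered 122 in PCDHAC1 and 140 in PCDHAC2. With so much of each window covered, these counts do not show that hotspots are placed on CGCT.

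For contrast, the first member by position without a start-site hotspot is shown for each cluster. In these windows capitals mark the 10-letter word with CGCT that is the most frequent in windows of the subfamily, as described further on, and the PCDHB1 window holds no copy of its subfamily's word.
PCDHA1 (chr5:140785890-140786189): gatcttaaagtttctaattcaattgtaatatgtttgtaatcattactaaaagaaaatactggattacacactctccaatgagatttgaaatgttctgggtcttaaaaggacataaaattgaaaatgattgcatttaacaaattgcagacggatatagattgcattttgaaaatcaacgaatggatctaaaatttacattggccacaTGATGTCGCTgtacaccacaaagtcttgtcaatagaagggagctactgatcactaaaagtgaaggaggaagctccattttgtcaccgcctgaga
PCDHB1 (chr5:141051124-141051423): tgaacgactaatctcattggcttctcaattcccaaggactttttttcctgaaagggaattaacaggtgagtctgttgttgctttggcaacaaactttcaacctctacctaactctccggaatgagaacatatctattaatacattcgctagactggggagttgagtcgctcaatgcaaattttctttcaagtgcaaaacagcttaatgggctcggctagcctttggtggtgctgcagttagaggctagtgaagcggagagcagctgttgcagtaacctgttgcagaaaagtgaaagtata
PCDHGA1 (chr5:141330264-141330563): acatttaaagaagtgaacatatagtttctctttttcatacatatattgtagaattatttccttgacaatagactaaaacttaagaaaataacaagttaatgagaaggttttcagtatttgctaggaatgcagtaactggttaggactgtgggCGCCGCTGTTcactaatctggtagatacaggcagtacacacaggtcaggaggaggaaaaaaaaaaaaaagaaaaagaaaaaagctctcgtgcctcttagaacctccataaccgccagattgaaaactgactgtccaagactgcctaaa

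The Saos-2 list held 51556 hotspots and the U2OS list 63388. Each hotspot has a −log10 significance given by the authors, whose median was 4.05 for Saos-2 and 4.6 for U2OS. This value is used below to rank hotspots within a list, as a percentile where 100 is the most significant. The number of reads is unknown for both libraries, and a deeper library yields more and stronger hotspots. The lists hold only sites past the authors' threshold, so the absence of a hotspot does not show closed chromatin. Of 6 genes of the osteoblast lineage, 3 had a hotspot within 1 kb of the start in each line. Among all protein-coding genes the shares with one were 45.8% (Saos-2) and 51.1% (U2OS). RUNX2 (chromosome 6), at significances of 12.5 (Saos-2) and 1.59 (U2OS), and SPARC had one in both lines. ALPL had one in Saos-2 only and COL1A1 in U2OS only, while COL1A2 and SP7 had none in either line. Among the epithelial, blood and neuronal marker genes reported here, CDH1, EPCAM, PTPRC and RBFOX3 had none in either line. CD3E, SNAP25 and SYP had one in both lines, and KRT8 in U2OS. A hotspot at a start is not a measure of expression, and marker hotspots were not used to assign a cell type.

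Few clustered protocadherin genes had a hotspot called at the start. A start-site hotspot is one that overlaps the window from 1 kb before to 1 kb after the gene start. In Saos-2 2 of 53 members had one (3.77%, exact Clopper-Pearson 95% interval 0.46 to 13%), compared with 45.8% of all protein-coding genes. In U2OS 8 of 53 had one (15.1%, interval 6.75 to 27.6%), compared with 51.1% of all protein-coding genes. The U2OS count rests on weak hotspots: with the top 50% of each list by significance, 2 members were called in each line, against 33.2% (Saos-2) and 37.4% (U2OS) of all protein-coding genes, with 1 in U2OS only and 1 in Saos-2 only. In the deposited lists both Saos-2 members, PCDHGB1 and PCDHGC3, were also called in U2OS, whereas 41.1% of all protein-coding genes were called in both lines. The other 6 U2OS members were PCDHA4, PCDHA11, PCDHAC1, PCDHAC2, PCDHB2 and PCDHB8. These 6 are 11.3% of the members, close to the 9.96% of all protein-coding genes called in U2OS only, so their number by itself does not set the members apart. In these lists no member was called in Saos-2 only, against 4.65% of all protein-coding genes. The remaining 45 members (84.9%) were called in neither line, against 44.3%. Among the 15848 protein-coding genes for which the strand of the start is known, 48.1% were called in Saos-2, 52.8% in U2OS and 43.5% in both. In that set the share with no hotspot in either line was 42.5%, and those called in a single line made up 4.61% (Saos-2) and 9.31% (U2OS), so leaving out genes of unknown strand did not change the order of any of these comparisons. Intervals cover counting error only, and the members are neighbours of shared origin, not independent samples.

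**Figure D1:**
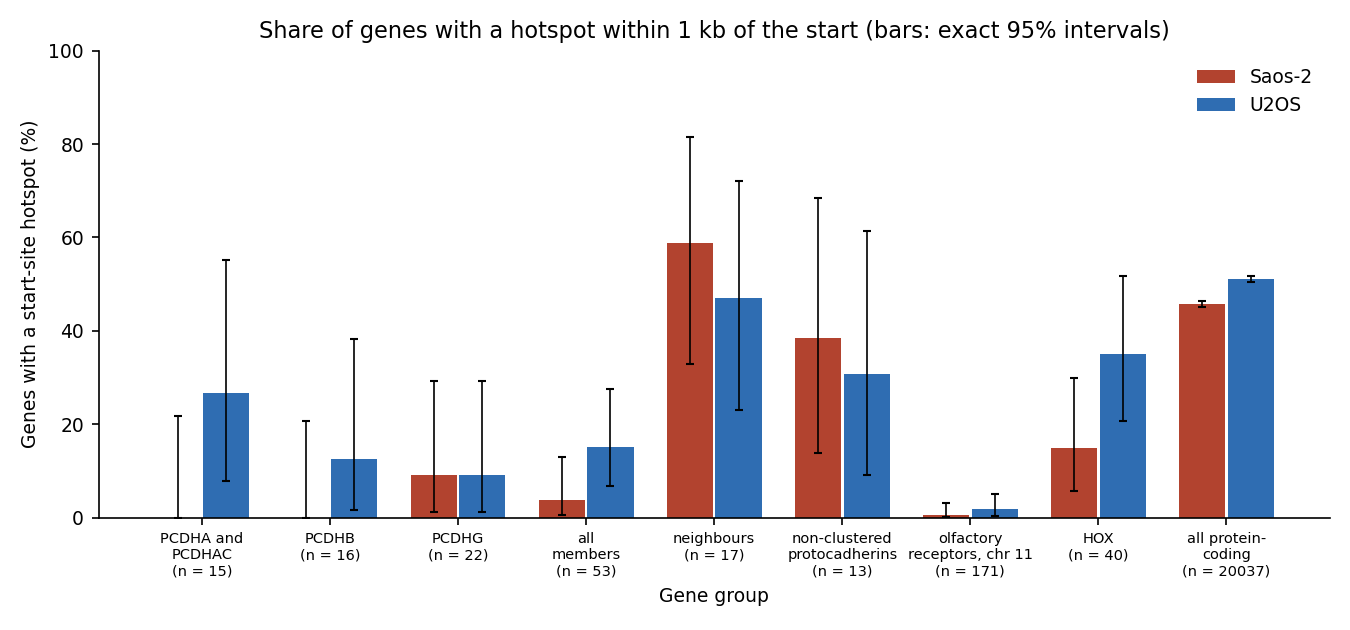
Share of genes (vertical axis, %) with a hotspot within 1 kb of the start in Saos-2 (red) and U2OS (blue), for the 3 clusters, all 53 members and comparison groups, with exact 95% intervals that cover counting error only. The members stand at 3.77% in Saos-2 and 15.1% in U2OS, below the 45.8% and 51.1% of all protein-coding genes. They stand above the olfactory receptor genes of chromosome 11, with intervals that overlap in Saos-2.

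Between the first and the last member, a stretch of 726.836 kb, 8 hotspots were called in Saos-2 and 17 in U2OS. This is a density of 11 hotspots per Mb in Saos-2 (exact Poisson 95% interval 4.75 to 21.7) and of 23.4 in U2OS (13.6 to 37.4). Chromosome 5 as a whole had 15 hotspots per Mb in Saos-2 and 21.3 in U2OS, which lay inside the counting interval of the clusters in both lines. The 200 kb before PCDHA1 held 11 Saos-2 and 8 U2OS hotspots. The 200 kb after the last member held 10 and 9. Merged over both lines, 6 sites between the members were found in both, 11 in U2OS only and 2 in Saos-2 only. Each site is counted once, although sites within the PCDHA and PCDHG clusters lie inside as many as 22 annotated genes. Of the U2OS hotspots in this stretch 35.3% (exact interval 14.2 to 61.7%) were overlapped by Saos-2, against 46.9% in the whole U2OS list. For Saos-2 the share was 6 of 8 (75%, 34.9 to 96.8%), against 58.1% in its whole list, so both whole-list shares lay inside the counting intervals.

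**Figure D2:**
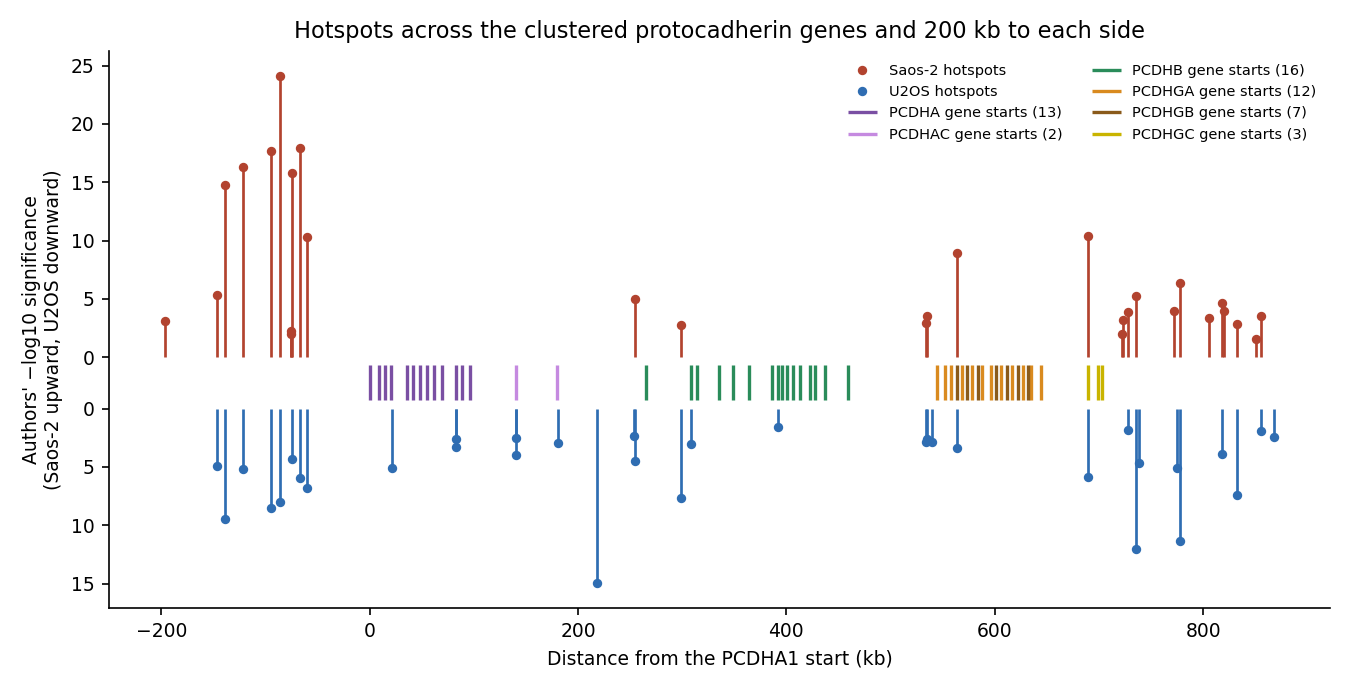
Hotspots of Saos-2 (red, upward) and U2OS (blue, downward) by distance from the PCDHA1 start (kb) and authors' −log10 significance, with the 53 gene starts as coloured ticks between them. No Saos-2 hotspot lies over the PCDHA and PCDHAC genes, where U2OS has 7.

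In the PCDHA cluster (140786140 to 141012347) the Saos-2 list held 0 hotspots and the U2OS list 7. None of the 15 starts was called in Saos-2, and 4 were called in U2OS. The Saos-2 list had no hotspot from 140726333 to 141041201, a gap of 314.9 kb that contains all 15 PCDHA and PCDHAC starts. Gaps at least as long made up 2.6% of all gaps between neighbouring Saos-2 hotspots (1341 of 51532), but together they spanned 31.5% of the genome, so a stretch of this length without a hotspot was not rare in this library. The median distance from a PCDHA start to the nearest hotspot was 108.0 kb in Saos-2 and 12.9 kb in U2OS.

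PCDHA4 (gene 56144, start 140807068) had 1 start-site hotspot in U2OS and none in Saos-2. The U2OS site spanned 140807504 to 140807770, with a significance of 5.09, and its centre lay 569 bases after the start. It was the most significant start-site hotspot of the cluster, at percentile 54.0 of the U2OS list, and the start itself was not covered. The nearest Saos-2 hotspot was 80.74 kb upstream.

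PCDHA11 (gene 56138, start 140868957) had 2 start-site hotspots in U2OS and none in Saos-2. The first, 140868814 to 140868977, covered the start with a significance of 3.33. The second, 140869486 to 140869626, was centred 599 bases after the start with a significance of 2.62. Both also lay in the non-coding RNA gene LOC112267934, and the lists carry no strand. The neighbours PCDHA10 and PCDHA12 had no start-site hotspot in either line, and their nearest U2OS hotspots were 12.92 kb and 5.68 kb away. The remaining PCDHA genes next to a called member, PCDHA3 and PCDHA5, were also without one in both lines, at 6.45 kb and 13.84 kb from a U2OS hotspot.

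Both C-type genes of the cluster were called in U2OS and not in Saos-2. PCDHAC1 (gene 56135, start 140926299) had a hotspot at 140926227 to 140926446, over the start, with a significance of 3.97, and a second at 140926538 to 140926707 with a significance of 2.54. PCDHAC2 (gene 56134, start 140966476) had a single hotspot at 140966386 to 140966707, over the start, with a significance of 2.93. These values are low within the U2OS list, at percentiles 43.8, 23 and 29.6. The nearest Saos-2 hotspots were 114.9 kb from PCDHAC1 and 74.73 kb from PCDHAC2. The PCDHA13 start, which precedes PCDHAC1, was called in neither line.

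The strongest U2OS hotspot between the first and last member was not at a start. It spanned 141004076 to 141004460 with a significance of 14.9, at percentile 87.4 of the U2OS list, and had no overlap in Saos-2. Its centre lay 37792 bases after the PCDHAC2 start, inside all 15 PCDHA and PCDHAC genes and inside PCDHACT, the annotated constant region of the cluster (140978949 to 141012344). The gene table gives no exons, so the site was not assigned to an exon or intron. Past the end of the cluster, a site at 141041137 to 141041440 was shared, at significances of 5.02 (Saos-2) and 4.46 (U2OS). A weaker U2OS hotspot at 141040222 to 141040382 (significance 2.32) lay beside it without overlap in Saos-2. These sites stood in the interval between PCDHAC2 and PCDHB1 and overlapped no member. The positions of named enhancers such as HS5-1 were not used here, and no site was matched to one.

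**Figure D3:**
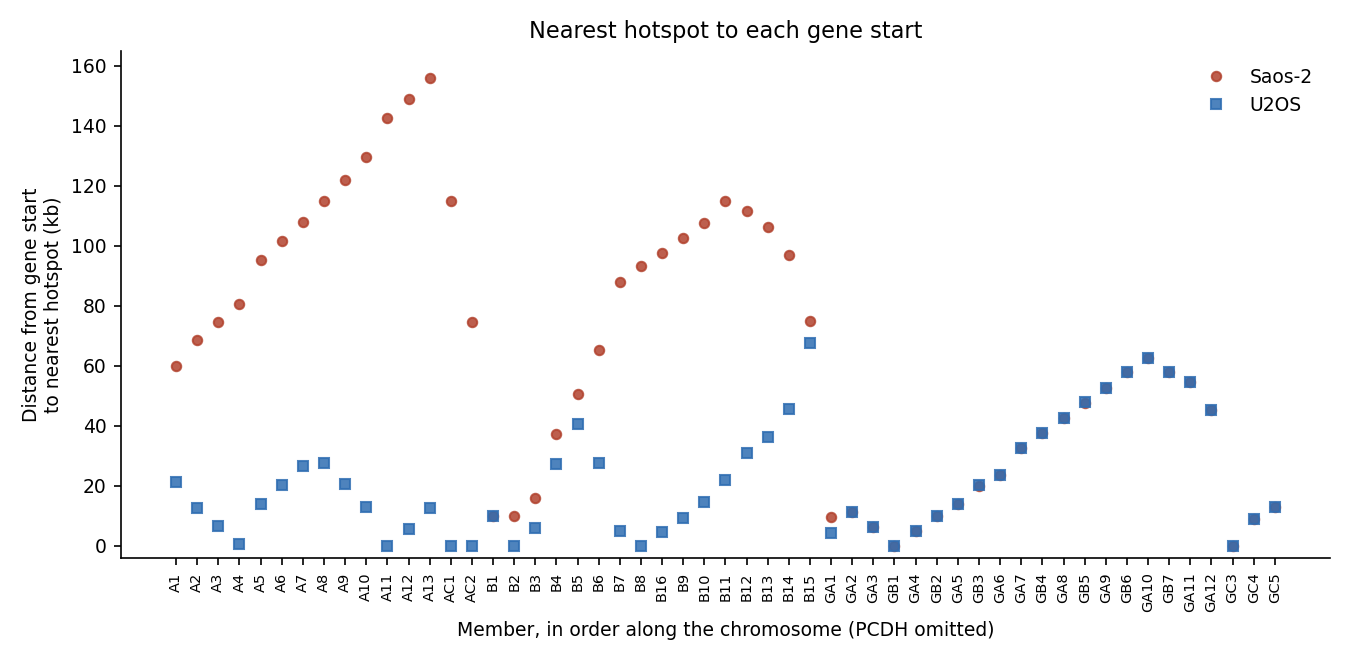
Distance (kb, vertical axis) from the start of each of the 53 members, in chromosomal order, to the nearest hotspot in Saos-2 (red circles) and U2OS (blue squares). The lines part over the PCDHA and PCDHB genes, with medians of 108.0 and 12.9 kb for PCDHA, and lie on top of each other over most PCDHG genes.

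In the PCDHB cluster (141051374 to 141249365) Saos-2 had 1 hotspot and U2OS 3. Of the 16 starts, 0 were called in the first line and 2 in the second. PCDHB2 (gene 56133, start 141094615) had a U2OS hotspot at 141094512 to 141094716, over the start, with a significance of 3.05. PCDHB8 (gene 56128, start 141177790) had a U2OS hotspot of 92 bp at 141177712 to 141177803, over the start. Its significance of 1.56, at percentile 2.61 of the list, lies close to the authors' threshold. Neither start had a Saos-2 hotspot within 1 kb, and the nearest ones were 9.94 and 93.11 kb away. PCDHB1, PCDHB3, PCDHB7 and PCDHB16, the genes next to these in the cluster, were called in neither line, with U2OS hotspots 9.93, 5.76, 5.07 and 4.58 kb from their starts. PCDHB1 is also spanned by the non-coding RNA gene PCDHB1-AS1, which held no hotspot at the PCDHB1 start.

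The single Saos-2 hotspot of the PCDHB cluster was shared. It spanned 141084541 to 141084678 with a significance of 2.73, within a U2OS hotspot at 141084478 to 141084734 with a significance of 7.69. The site lay between PCDHB1 and PCDHB2, with its U2OS centre at -10009 relative to the PCDHB2 start. It was the only overlapping pair between the members in which U2OS had the higher value. From 141084679 to 141320261, a gap of 235.6 kb with 15 PCDHB starts from PCDHB2 to PCDHB15, Saos-2 had no hotspot. Saos-2 gaps at least as long spanned 37.5% of the genome.

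In the PCDHG cluster (141330514 to 141512975) the same 2 of 22 starts were called in both lines. PCDHGB1 (gene 56104, start 141350099) had a significance of 8.92 in Saos-2, at 141349915 to 141350206, and of 3.41 in U2OS, at 141349953 to 141350153. The U2OS hotspot lay wholly within the Saos-2 one. PCDHGC3 (gene 5098, start 141475966) had a significance of 10.4 in Saos-2, at 141475732 to 141476078, and of 5.88 in U2OS, at 141475739 to 141476012. Here too the Saos-2 hotspot was the wider and the more significant. Within their own lists the PCDHGC3 sites ranked at percentiles 83.9 and 59.7 and the PCDHGB1 sites at 79.8 and 36.9, so both members ranked higher in Saos-2.

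None of the 12 PCDHGA starts was called in either line. From PCDHGB1 to PCDHGC3 both lists were empty for 125.5 kb in Saos-2 and 125.6 kb in U2OS, a stretch with 15 member starts from PCDHGA4 to PCDHGA12. Gaps at least as long spanned 52.8% of the genome in Saos-2 and 39.4% in U2OS, so such stretches were common. PCDHGA3 and PCDHGA4, on either side of PCDHGB1, were 6.09 and 4.82 kb from a Saos-2 hotspot. PCDHGC4 and PCDHGC5, which follow PCDHGC3, were called in neither line, and their starts were 8.95 and 13 kb from a Saos-2 hotspot. Saos-2 had 2 further hotspots near the shared end of the cluster, at 141507943 to 141508069 (significance 1.97) and at 141509167 to 141509393 (significance 3.16), without overlap in U2OS. They were the only Saos-2 hotspots between the first and last member that U2OS did not overlap, and they lie inside all 22 PCDHG genes. A site just past the cluster end, at 141513909 to 141514770 in Saos-2, was 862 bp wide with a significance of 3.9, and the U2OS hotspot within it was 162 bp wide with a significance of 1.81.

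Between the PCDHB and PCDHG clusters the hotspots lay at TAF7, which encodes a subunit of the general transcription factor TFIID and is no protocadherin. Its start window held 2 hotspots in each line, at significances of 2.98 and 3.58 (Saos-2) and of 2.83 and 2.59 (U2OS). A U2OS hotspot at 141326108 to 141326295 (significance 2.9), centred at -4312 relative to the PCDHGA1 start, was not overlapped by Saos-2. SLC25A2, a mitochondrial carrier gene in the same interval, had no hotspot at either end.

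Around the clusters, start-site hotspots were more common than among the members, a difference that was not tested. Of 17 protein-coding neighbours that start between the members or in the flanks, 10 had a start-site hotspot in Saos-2 (58.8%, exact interval 32.9 to 81.6%) and 8 in U2OS (47.1%, 23 to 72.2%). The shares of all protein-coding genes, 45.8% and 51.1%, lay inside these intervals. The intervals are wide and count genes that share a hotspot separately, so they do not show that the neighbours equal genes in general. NDUFA2 and IK were called through the same hotspot in each line, and so were HARS1 and HARS2. All 8 U2OS neighbours were also called in Saos-2, among them HARS1 and HARS2, the histidyl-tRNA synthetase genes, and DIAPH1, a formin gene. HDAC3, a histone deacetylase gene, and RELL2 shared a weak hotspot of significance 1.57 in Saos-2 only. In the flank before PCDHA1 the last sites in both lines stood at the vault RNA genes VTRNA1-1, VTRNA1-2 and VTRNA1-3. Their significances were 15.8, 17.9 and 10.3 in Saos-2 and 4.31, 5.95 and 6.76 in U2OS.

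Where both lines had a hotspot, the line with the higher significance varied along the region. All 8 overlapping pairs before PCDHA1 had the higher value in Saos-2, with 5.35 to 24.1 in Saos-2 and 4.31 to 9.48 in U2OS. Between the first and last member 5 of 6 pairs were higher in Saos-2, and after the last member 3 of 6 were. Over all chromosomes Saos-2 was higher in 37.4% of 30625 overlapping pairs. The counts in this region were the same when percentiles within each list were compared, where Saos-2 was higher in 44.4% of all pairs. The last Saos-2 hotspot before the PCDHA genes, that at VTRNA1-3, ended 59.81 kb before the PCDHA1 start. The differences along the region were not tested.

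**Figure D4:**
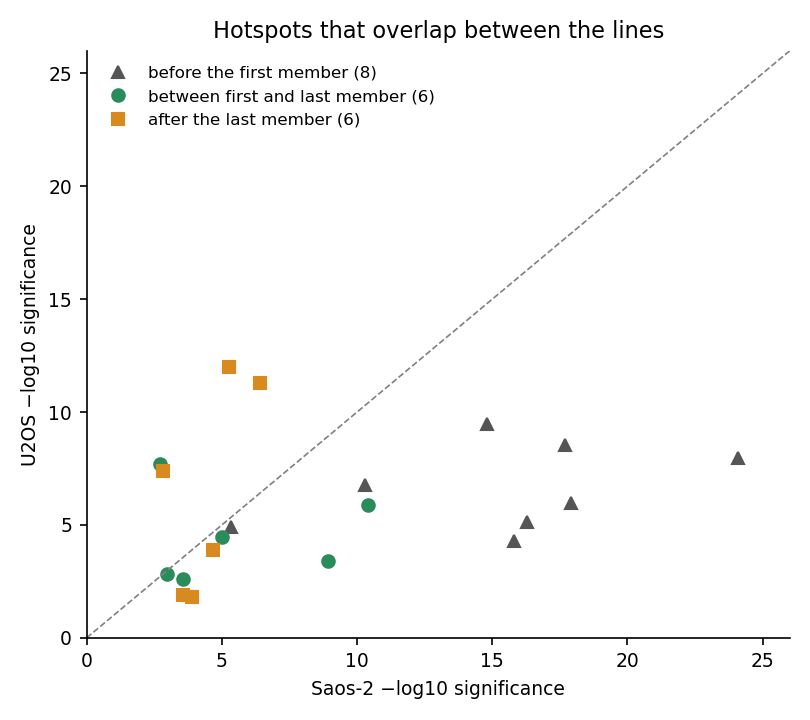
Authors' −log10 significance of the 20 overlapping pairs of hotspots in the region, Saos-2 on the horizontal and U2OS on the vertical axis, by position relative to the members. All 8 pairs before the first member lie below the dashed line of equal values.

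The promoter windows of the members were poor in CpG dinucleotides. RefSeq windows were found for 47 of the 53 members, and PCDHA3, PCDHA13, PCDHB6, PCDHB11, PCDHGA12 and PCDHGC5 had none. Of these, 46 windows are placed at the gene start and that of PCDHGB2 is placed 142 bases after it. The median was 7.0 CpG per 300-base window, with a range of 2 to 27, against a median of 22 over 15840 windows of protein-coding genes. The subfamilies differed: PCDHA windows held 3 to 9 CpG, PCDHGA windows 2 to 12, PCDHB windows 5 to 12 and PCDHGB windows 7 to 16. The 5 richest windows were those of PCDHAC1 (27), PCDHGC4 (23), PCDHGC3 (18), PCDHGB6 (16) and PCDHAC2 (15), all but 1 of them C-type genes. The G+C content had medians of 36% for PCDHA, 38.3% for PCDHGA, 40.9% for PCDHB and 48.3% for PCDHGB, and ranged from 59 to 66% in the C-type windows.

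Among all genes the share of windows called rose with CpG content up to 32 CpG, and this was set beside the members after the data had been seen. Windows with a hotspot within 1 kb of the start in either line had a median of 26 CpG, and those without had 8. Among the 4020 windows with 0 to 8 CpG, 11.2% were called in Saos-2 and 13.5% in U2OS, compared with 1 and 3 of the 30 members in that range. Among the 4183 windows with 9 to 22 CpG, 56.0% and 60.6% were called, compared with 1 and 4 of 15 members. In the range of 9 to 22 CpG the share of members called lay below that of all windows in both lines. In the range of 0 to 8 CpG the U2OS share was close to that of all windows, and the Saos-2 share rests on 1 member. The member counts are small, and no interval was computed for them. In the range of 23 to 32 CpG, 70.0% and 75.2% of 4026 windows were called, compared with 0 and 1 of 2 members. From 33 to 69 CpG, where no member lay, the shares of all windows were lower, at 58.8% and 65.4%. The part of CpG content in the members' counts was not tested. Members with a start-site hotspot had 5 to 27 CpG and those without had 2 to 23, so the ranges overlapped.

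**Figure D5:**
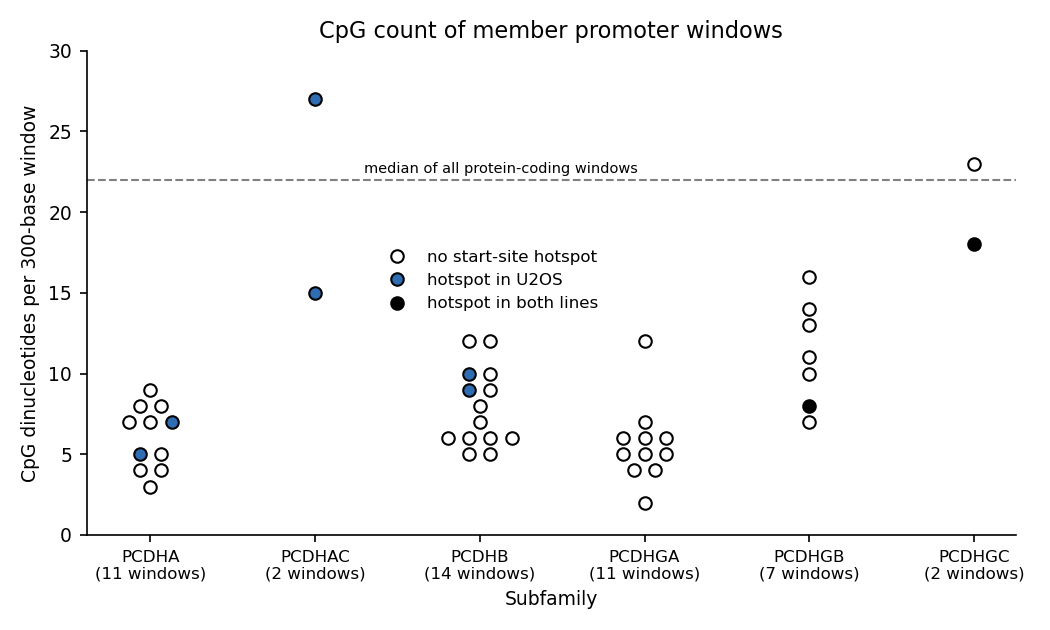
CpG dinucleotides per 300-base promoter window (vertical axis) for the 47 members with a window, by subfamily; filled points have a start-site hotspot in U2OS (blue) or both lines (black), and the dashed line is the median of 22 over all protein-coding windows. Called members are spread from 5 to 27 CpG.

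Short sequences were shared within subfamilies, and in the PCDHG cluster also between them, which bears on how the windows can be read. CGCT, searched on both strands, was present in 46 of 47 member windows, but also in 81.0% of all 15840 windows, so this short core does not mark the family. The longer words were picked as the most frequent 10-letter sequence with CGCT in the windows of a subfamily. TGATGTCGCT was found in 8 of 11 PCDHA windows, with its first base between positions -87 and -44, and in 0.0568% of all windows on either strand. The called members divide on it: PCDHA4 holds the word and PCDHA11 does not. GGTGGCGCTG was found in 12 of 14 PCDHB windows, PCDHB2 and PCDHB8 included, and in 0.347% of all windows. In the PCDHB2 window it starts at position -60, inside the bases covered by the hotspot. GCGCCGCTGT was found in 4 of 7 PCDHGB windows, and in PCDHGB1 it starts at position -62, within the hotspot. With the PCDHGA windows that hold it, it was found in 9 member windows, and in 0.177% of all windows. For PCDHGA the word CGCCGCTGTT was found in 5 of 11 windows, PCDHGA1 included. With PCDHGB4 and PCDHGB5 it was found in 7 member windows, and in 0.164% of all windows. No PCDHGA start was called, so this word cannot be compared with calls in that subfamily. A shared word is a description of these letters and not a bound site.

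Other sequences were searched on both strands as well. A long spelling of the CTCF core motif was found in 1 of 47 member windows, that of PCDHB9, and in 6.04% of all windows. AGGNGGC, the last letters of that motif, was found in 4 member windows, PCDHAC1, PCDHB2, PCDHB7 and PCDHB9, and in 42.1% of all windows. Both spellings are rich in G and C, and the median G+C content was 39.7% in member windows against 62.7% in all windows. The shares were not adjusted for this, and exact spellings miss variants, so they do not show that CTCF sites are lacking. TATAAA was found in 6 member windows (12.8%) and in 9.75% of all windows. None of these 6 members had a start-site hotspot, but only 8 of the 47 members with a window had one, so nothing is read from this. Copies of long identical sequence were uncommon: 6 windows shared any 36-base word with another member's window, and the largest share was 23.4% of such words, between PCDHGB4 and PCDHGB5. Among the called members only PCDHB8 shared such words, 7.55%, with PCDHB13. How the authors treated reads that map to several places is not given in the sources used here.

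Protocadherin genes outside the clusters are of the same superfamily but stand alone in the genome. Of 13 non-clustered protocadherin genes, 5 had a start-site hotspot in Saos-2 (38.5%, exact interval 13.9 to 68.4%) and 4 in U2OS (30.8%, 9.09 to 61.4%). The shares of all protein-coding genes, 45.8% and 51.1%, lay inside these intervals. PCDH9 (chromosome 13) was called in both, at 11.6 (Saos-2) and 9.54 (U2OS). PCDH1, on the same chromosome as the clusters, was called in both with 4.5 and 5.31. PCDH10, PCDH18 and PCDH20 were called in Saos-2 only, and PCDH7 and PCDH11X in U2OS only. Of 12 genes whose proteins regulate the clusters, 11 were called in both lines (91.7%, against 41.1% of all protein-coding genes), with WIZ called in neither. They include CTCF, at 11.8 (Saos-2) and 19.5 (U2OS), the cohesin subunit gene SMC3, at 5.27 and 21.3, and SETDB1, a histone H3K9 methyltransferase gene, at 26.8 and 26. Other regulator starts had weak hotspots, such as SMCHD1, at 2.49 and 1.54, and DNMT3B, at 1.63 and 2.15.

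Other tandem gene families, added after the data had been seen, lay on both sides of the members. Of 171 olfactory receptor genes on chromosome 11, 1 was called in Saos-2 (0.585%, exact interval 0.0148 to 3.22%) and 3 in U2OS (1.75%, 0.363 to 5.04%). Of 40 HOX genes, 6 were called in Saos-2 (15%, 5.71 to 29.8%) and 14 in U2OS (35%, 20.6 to 51.7%). Of 250 ZNF genes on chromosome 19, 171 were called in each line (68.4%). The Saos-2 intervals of the members and the HOX genes overlap, and so do those of U2OS. Intervals of the members and the olfactory receptor genes overlap in Saos-2 and not in U2OS. The differences between families were not tested.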

How the data were processed

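DNase-seq libraries of Saos-2 and U2OS, 1 per line, were used in the form of the authors' deposited hotspot lists, on hg38 without alternate contigs and with a false discovery rate limit of 0.05, per the file names. Per the submitters' processing notes, Trimmomatic 0.38 and BWA 0.7.15 were used. The hotspot caller, the depth and the treatment of duplicate or multiply mapped reads are not given in the sources used here. Each deposited hotspot has a −log10 value, taken as its significance because the lowest is 1.30 and the highest 100.0. The deposited score is this value times 10, rounded, and was not used.

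Gene spans and promoter sequences came from RefSeq, assembly GRCh38.p14, whose primary chromosomes are those of hg38. Start strands were known for 15848 of 20037 genes. For the other 4189 genes either end counted as a start, except for members, where the lower-coordinate end was used. Hotspots were related to genes and to each other by overlap of at least 1 bp (Python 3.11.15, pandas 2.3.3, SciPy 1.17.1), with code tested on simulated data. With 1 library per line no test was made, and exact intervals cover counting error only.

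The members and lists were chosen with earlier results of these data known. Genes named were the members with a start-site hotspot, their neighbours, the C-type members and PCDHB1, with every hotspot between the members. Further neighbours and list genes were named after their values were seen. Printed windows were the 6 overlapped by the most significant hotspots and, for contrast, the first uncalled window per cluster. Alternatives were other windows, stricter overlap, the top 50% of each list, lists of equal length, merging within 150 bp, a minimum width of 200 bp and a flank of 100 kb.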

Additional observations from a re-analysis of the deposited data

How the results depend on the processing

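No paired analysis was possible because there was 1 library per line, and none could be left out. Of 56 values recomputed under an alternative, 44 stayed within 1.5-fold of the value from the deposited lists. The other 12 came from shorter lists. With the top 50% of each list, where the lowest significance kept is 4.06 in Saos-2 and 4.6 in U2OS, 2 members had a start-site hotspot in U2OS (PCDHA4 and PCDHGC3) and 2 in Saos-2, with 1 in both lines, 1 in U2OS only and 1 in Saos-2 only (PCDHGB1). Of all protein-coding genes 33.2% (Saos-2) and 37.4% (U2OS) were then called. The excess of U2OS over Saos-2 starts therefore rests on U2OS hotspots of less than median significance. The region then held 14 Saos-2 and 16 U2OS hotspots, with 10 of each overlapped, and 3 and 4 of them lay between the first and last member. With hotspots of at least 200 bp, 5 Saos-2 and 9 U2OS hotspots lay between the members. With lists of equal length, in which U2OS keeps hotspots of at least 2.31, 7 members were called in U2OS, without PCDHB8. The PCDHA4 hotspot lies outside the window from 250 bp before to 50 bp after the start, which left 7 U2OS members. The same 2 members, PCDHGB1 and PCDHGC3, were called in Saos-2 under each of these settings. Depth is unknown, so weak sites missing from either list may be accessible below the threshold.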
